A study of Mus musculus with 2 samples.

Results

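The genes described here encode the SR and hnRNP splicing regulators and the SF3A, SF3B, U2AF and PTB proteins, in CH12.LX, an immortalized B-cell lymphoma line of the mouse. They were chosen by name: 46 protein-coding genes have a GENCODE M21 symbol that begins with Srsf, Hnrnp, Sf3a, Sf3b, U2af or Ptbp and are present in the gene tables of both libraries, out of 21474 protein-coding genes and 43346 Ensembl entries. They comprise 11 SR genes, 20 hnRNP genes, 3 SF3A genes, 6 SF3B genes, 3 U2AF genes and 3 PTB genes, and the naming rule uses no measured value. Polyadenylated RNA was sequenced from single ends in 2 libraries, which the labels give as biological replicates 1 and 2 from separate biosamples of the line. The line is labelled female, of strain B10.H-2aH-4bp/Wts, and the labels name no treatment, further genotype or time. All values therefore come from 1 group, and no comparison between conditions could be made.

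SR proteins bind exons through RNA recognition motifs and recruit the splicing machinery through a domain rich in arginine and serine, and they usually favour inclusion of the exon. The hnRNP proteins coat newly made RNA and often act the other way, repressing exons or competing for the same sites, while the SF3A and SF3B complexes of the U2 particle and the U2AF dimer recognise the branch point and the end of the intron. Many genes of these families regulate themselves: their own proteins promote an isoform with an early stop codon (a poison exon) or a retained intron, and such RNA is destroyed by nonsense-mediated decay or held in the nucleus.

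The stop codons that the annotation places in the leading decay-typed transcript of 5 of these genes are shown because these transcripts held 25% or more of the gene's abundance in both libraries, alone or together with others of the same type. Each line gives 30 bases of the GENCODE M21 transcript in its own 5′ to 3′ direction, ending with the stop codon in capitals.
Srsf1-204: aagagatggattaagaatgctttggatTAA
Srsf2-204: ccagaagaagagggagcagtttcttccTAA
Srsf3-201: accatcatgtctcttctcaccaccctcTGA
Srsf6-201: gccatgacgacagcagccttttgccatTAG
Hnrnpd-208: ggacatcaaaatagctacaaaccatacTAA

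In Srsf3 the stop lies in an exon of 456 bases at chr17:29039454-29039909 on the plus strand of mm10 that is absent from the only coding transcript of the gene in the table. In Srsf6 it lies in an exon of 268 bases at chr2:162932815-162933082 on the plus strand, outside the exons of the leading coding transcript, and 1 other transcript typed coding, Srsf6-202 with 0% of the gene in both libraries, uses the same stop. The Srsf1 stop lies at chr11:88050013 on the plus strand, at a position that all 3 coding transcripts have in an exon but none uses as its stop. Whether it lies before or after the stops that those transcripts use was not tested. In the other 2 genes the stop is one that coding transcripts use. The Srsf2 stop at chr11:116852030 on the minus strand is that of both coding transcripts. The Hnrnpd stop, in an exon of 98 bases at chr5:99962515-99962612 on the minus strand, is that of the 4 coding transcripts with an annotated stop, which all hold the same exon. In Srsf2 and Hnrnpd the decay-typed transcripts therefore share their stop with coding ones and carry an exon junction after it. The stop lay 80 bases before the last exon junction in Srsf1-204, 113 bases in Srsf2-204, 548 bases in Srsf3-201, 534 bases in Srsf6-201 and 137 bases in Hnrnpd-208. These distances are a property of the annotation, which types transcripts in this way, and not of the measured RNA.

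Nearly every member was expressed. Of the 46 genes, 45 reached 1 TPM (a level corrected for transcript length and scaled to the library) in both libraries, against 10317 of 21474 protein-coding genes, or 48.0%. The exception was Srsf12, an SR protein related to the repressor Srsf10, with 0 counts in replicate 1 and 1 count in replicate 2. Srsf12 was listed at 0 and 0.02 TPM, and 3 counts, the limit that a count of 0 allows, would have been 0.0993 TPM in replicate 1. The levels were high: 27 members had at least 100 TPM in both libraries, where 1333 detected protein-coding genes did (12.9%). The median level over the 46 members was 175.3 TPM in replicate 1 and 155.9 TPM in replicate 2, against 21.1 and 20.7 TPM over all detected protein-coding genes. Together the members held 1.95% of the protein-coding TPM in replicate 1 and 1.77% in replicate 2, a mean of 1.86% ± 0.126 (SD, n = 2). Of all counts assigned to Ensembl genes, 22986654 in replicate 1 and 25701469 in replicate 2, they held 1.98% (Wilson 95% interval 1.977 to 1.988%) and 1.86% (1.857 to 1.867%). These intervals cover counting error only.

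The cells carried the markers of their labelled lineage. All 8 B cell markers examined were detected, with Cd79b at 525.0 TPM in replicate 1 and 545.3 TPM in replicate 2, Ms4a1 at 267.2 and 284.5 TPM, Cd79a at 262.2 and 313.9 TPM, and Blnk at 200.6 and 208.9 TPM. By an exact binomial test of the libraries against each other, which covers counting error only, 0 of the 8 were higher and 7 were lower in replicate 1, and 0 markers of the other 3 lists were called. Over all 15340 genes tested, 15.9% were higher and 14.7% lower, and among detected protein-coding genes averaging 500 counts or more 21.8% and 23.9%. Of 6 T cell markers only Cd3d reached 1 TPM in both libraries, at 1.14 and 1.63 TPM. Cd4 had 0.86 and 1.18 TPM, Trac had 0.49 and 1.03 TPM, Cd8a had 0.16 and 0.34 TPM, Cd3e had 0.04 and 0.08 TPM, and Bcl11b was listed at 0 in both. Of 6 myeloid markers Itgam (1.79 and 1.24 TPM) and Adgre1 (1.64 and 1.34 TPM) reached that level, Csf1r had 0.65 and 0.66 TPM, Lyz2 had 0.05 and 0.09 TPM, and Mpo and S100a8 were listed at 0. Of 5 neural markers Map2 (4.19 and 4.76 TPM) and Tubb3 (2.02 and 1.31 TPM) reached it, Snap25 had 0.27 and 0.08 TPM, and Rbfox3 and Gfap were listed at 0.

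**Figure D1:**
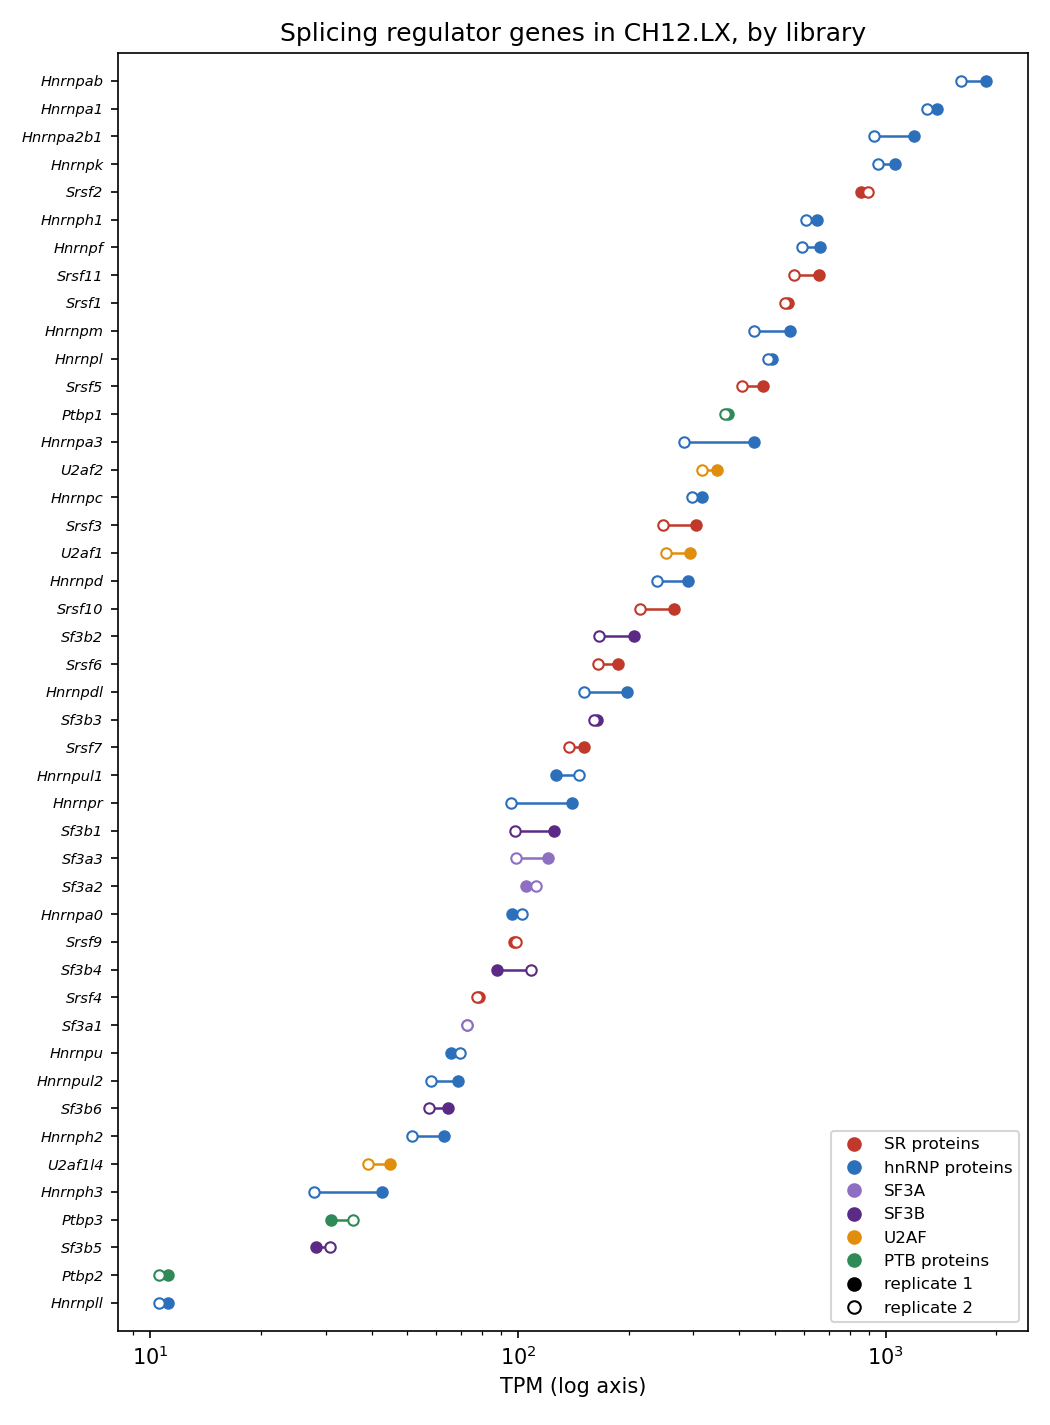
Level of the 45 detected splicing regulator genes, in TPM on a log axis, with 1 row per gene in order of mean level. Filled points are replicate 1, open points replicate 2, and colours mark the families. Levels ran from Hnrnpab at 1875 and 1602 TPM to Hnrnpll at 11.2 and 10.6 TPM, and most genes lay slightly higher in replicate 1.

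The hnRNP genes held the largest part of the members' RNA, 63.1% of the summed TPM in replicate 1 and 61.6% in replicate 2. The A/B type, which have paired RNA recognition motifs and a glycine-rich tail, led. Hnrnpab, on chromosome 11 at chr11:51600100-51606847 (minus strand), had 1875 TPM in replicate 1 and 1602 TPM in replicate 2 and ranked 57 among all protein-coding genes. Hnrnpa1, a repressor of exons in many transcripts, had 1374 and 1297 TPM. Hnrnpa2b1 had 1194 TPM in replicate 1 and 931.5 TPM in replicate 2, a range that overlapped that of Hnrnpk, the poly-C binding hnRNP, at 1061 and 954.6 TPM. Those 4 genes stood above all other members in both libraries, and the 3 highest alone held 28.9% and 28.0% of the members' TPM. Hnrnpa3 had 438.0 TPM in replicate 1 against 282.2 TPM in replicate 2, the widest relative gap in TPM among the detected members. Its counts were close, at 10285 and 10719, a log2 ratio of 0.08 after scaling for library size. Its transcript Hnrnpa3-206, of 754 bases, held 71.7% of the gene in replicate 1 and 41.2% in replicate 2. Hnrnpa0, which binds AU-rich RNA, was lower at 96.5 and 102.6 TPM.

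The hnRNPs that bind runs of G, the F/H type, differed strongly among themselves. Hnrnpf had 660.8 and 592.4 TPM and Hnrnph1 had 652.3 and 607.8 TPM, with overlapping ranges. Hnrnph2, the X-linked paralog, had 63.0 and 51.6 TPM, so Hnrnph1 was 10.4 times higher in replicate 1 and 11.8 times higher in replicate 2. Hnrnph3 had 42.6 and 27.9 TPM.

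Hnrnpm, which binds GU-rich RNA, had 550.1 and 437.7 TPM, and Hnrnpl, which binds CA repeats, had 491.0 and 478.5 TPM. Hnrnpll, the Hnrnpl paralog known for its control of CD45 exons in lymphocytes, had 11.2 and 10.6 TPM, with Ptbp2 the lowest level of the detected members, and Hnrnpl stood 44.0 and 45.1 times above it. Hnrnpc, which binds U tracts and packages nascent RNA, had 317.4 and 297.8 TPM. Hnrnpd (AUF1), a binder of AU-rich elements, had 289.5 and 238.9 TPM. Its neighbour on chromosome 5, Hnrnpdl, which lies 54.6 kb away, had 197.4 and 151.0 TPM. The remaining members of the family had intermediate or low levels. Hnrnpr had 139.9 TPM in replicate 1 and 95.7 TPM in replicate 2. The U type, whose founder Hnrnpu binds chromatin-associated RNA, comprised Hnrnpul1 at 126.6 and 146.5 TPM, Hnrnpul2 at 68.9 and 58.0 TPM, and Hnrnpu at 65.7 and 69.7 TPM.

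The SR genes held 23.4% of the members' TPM in replicate 1 and 24.4% in replicate 2. Srsf2 (SC35), at chr11:116849901-116853094 on the minus strand, led with 854.9 and 896.7 TPM. Srsf11, at chr3:158010473-158036639 on the minus strand, followed at 659.4 and 563.9 TPM, and Srsf1 (ASF/SF2), the founding SR protein, at 542.3 and 533.3 TPM. Those 3 stood above the other SR genes in both libraries. Srsf5 had 462.3 and 407.2 TPM, Srsf3 had 305.5 and 247.5 TPM, and Srsf10, which represses splicing when dephosphorylated, had 264.9 and 215.2 TPM. Srsf6 had 186.8 and 165.3 TPM, Srsf7 had 151.5 and 137.9 TPM, Srsf9 had 97.8 and 98.9 TPM, and Srsf4 had 78.2 and 77.5 TPM. Apart from Srsf12, the SR genes thus spanned levels from Srsf4 to Srsf2 with no member near the detection limit.

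Among the factors that recognise the end of the intron, the U2AF dimer was present at similar levels of its subunits. U2af2, the large subunit that binds the polypyrimidine tract, had 347.2 and 317.0 TPM, and U2af1, the small subunit that reads the terminal AG, had 294.0 and 252.6 TPM, a ratio of 1.18 in replicate 1 and 1.26 in replicate 2. U2af1l4, a paralog of the small subunit, had 44.9 and 39.1 TPM.

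The SF3B genes ranged more widely. Sf3b2 had 206.8 and 166.1 TPM, Sf3b3 had 163.7 and 160.9 TPM, and Sf3b1, the large scaffold that holds the branch point, had 125.1 and 98.2 TPM. Sf3b4 had 87.9 and 108.3 TPM, Sf3b6 (p14), which sits near the branch-point adenosine, had 64.5 and 57.2 TPM, and Sf3b5 had 28.3 and 30.8 TPM. Sf3b2 was therefore 7.30 times Sf3b5 in replicate 1 and 5.39 times in replicate 2, although their products belong to the same complex. The 3 SF3A subunits lay closer together, with Sf3a3 at 120.4 and 98.5 TPM, Sf3a2 at 105.1 and 111.8 TPM and Sf3a1 at 72.9 and 72.8 TPM.

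PTB proteins bind pyrimidine tracts and repress exons, and their 3 genes were strongly ordered. Ptbp1, the form of most non-neural cells, had 372.0 and 364.5 TPM. Ptbp3, known from blood cells, had 31.1 and 35.7 TPM, and Ptbp2, the neural form, had 11.2 and 10.6 TPM. Ptbp1 was 33.2 and 34.4 times Ptbp2, and 12.0 and 10.2 times Ptbp3. Along the whole order of the 46 genes, 28 of the 45 neighbouring pairs had ranges over the 2 libraries that overlapped, so most adjacent ranks cannot be told apart.

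The tables also divide each gene's level over its annotated transcripts, as an isoform percent. Of the 309 transcripts listed for the members, 151 are typed protein coding, 40 nonsense-mediated decay, 81 retained intron and 36 processed transcript, and 1 had no match in the annotation. Retained-intron and processed transcripts have no annotated coding sequence and are counted together here as transcripts without one. Over the summed TPM of the members, coding transcripts held 77.2% in replicate 1 and 79.7% in replicate 2, against 83.8% and 85.3% over all detected protein-coding genes. Decay-typed transcripts held 7.57% and 6.29% of the members' TPM, against 3.01% and 2.99% over all detected genes. Transcripts without a coding sequence held 15.2% and 13.9%, against 11.9% and 10.5%. These shares are a description and carry no test.

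**Figure D2:**
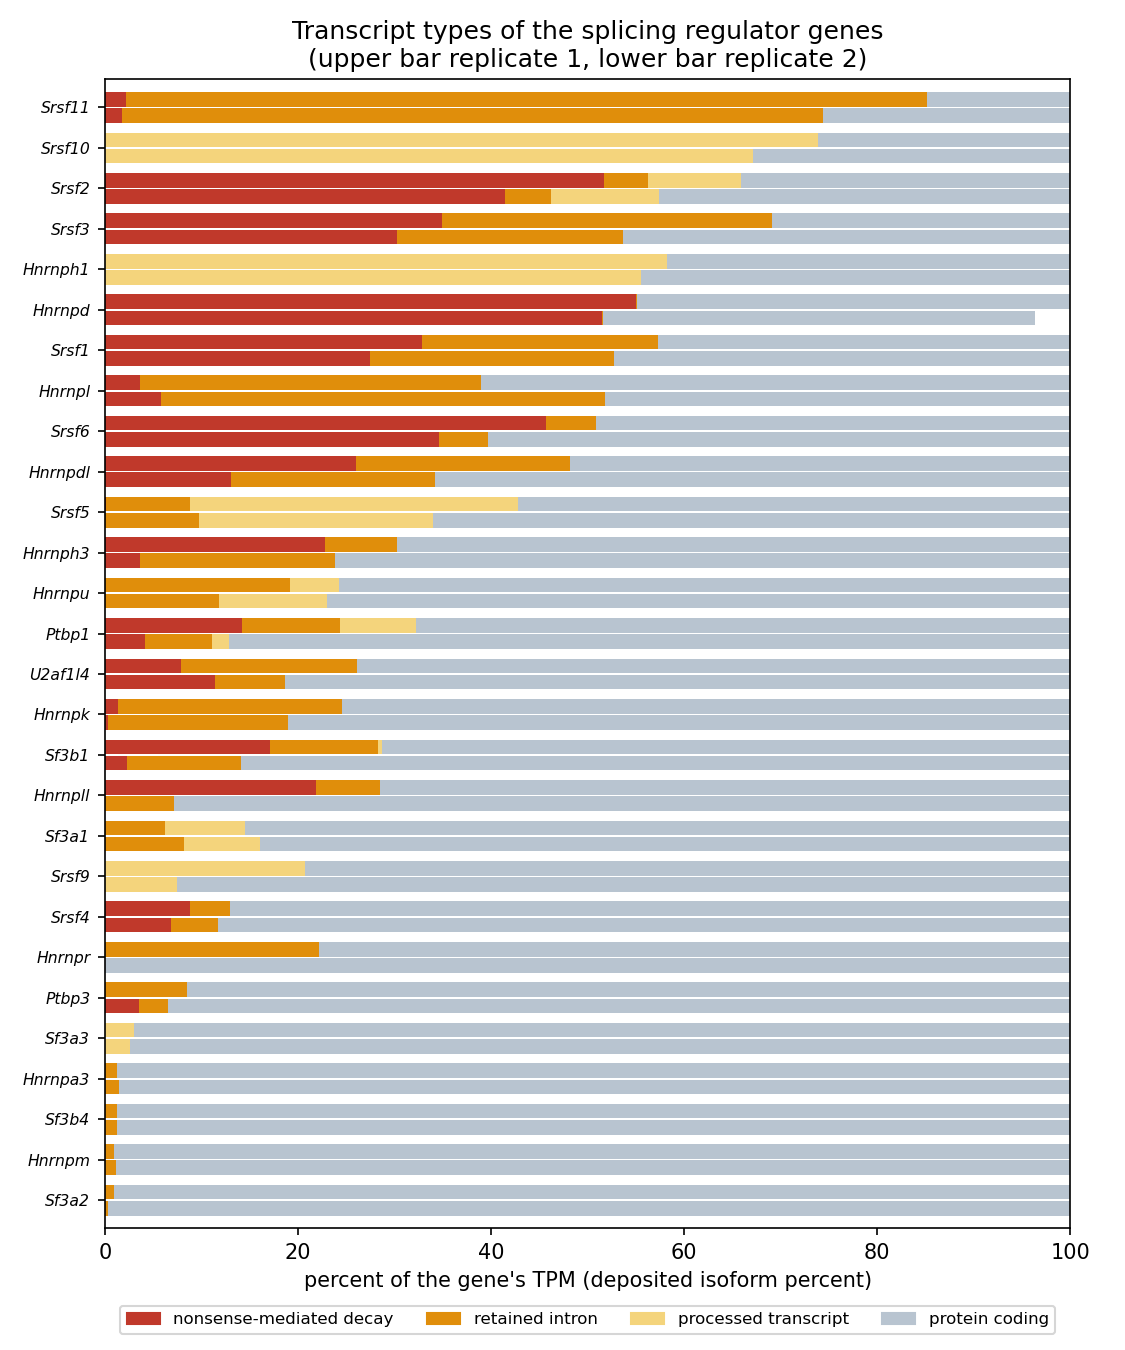
Share of each gene's TPM on its annotated transcript types, in percent, for the 28 splicing regulator genes with a decay-typed transcript or one without a coding sequence. The upper bar of each gene is replicate 1 and the lower bar replicate 2. Coding transcripts held under 50% in both libraries in 7 genes, from Srsf11 at the top to Srsf1. The same count was not made over all detected genes. The unfilled 3.65% of Hnrnpd in replicate 2 is 1 transcript with no type.

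The decay-typed share was high in a small set of SR genes and in Hnrnpd. Of the 18 detected members with such a transcript, 5 had 25% or more of their TPM on decay-typed transcripts in both libraries (27.8%), against 398 of 2191 detected protein-coding genes (18.2%). In Srsf2 the share was 51.7% in replicate 1 and 41.4% in replicate 2, all on Srsf2-204. In Srsf6 it was 45.7% and 34.6%, all on Srsf6-201. In Srsf3 it was 34.9% and 30.2%, all on Srsf3-201, whose annotated length in M21 differs from the deposited one. In Srsf1 it was 32.8% and 27.4%, almost all on Srsf1-204. In these 4 SR genes the share was higher in replicate 1.

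Hnrnpd had 55.0% and 51.4% of its TPM on decay-typed transcripts, and the division among them changed between libraries. Hnrnpd-209 held 31.8% in replicate 1 and 0% in replicate 2, Hnrnpd-208 held 12.1% and 33.8%, and Hnrnpd-204 held 7.32% and 16.9%. These 3 transcripts use the same stop, which is also that of coding Hnrnpd transcripts holding 16.0% and 15.9%. Their sum was 51.2% in replicate 1 and 50.7% in replicate 2, while the shares of the single transcripts moved by more.

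The transcripts' TPM carried the deposited intervals, whose level is not given in the files and which surround the posterior mean rather than the TPM itself. Srsf2-204 had 441.8 TPM (389.4 to 441.5) in replicate 1 and 371.3 TPM (325.6 to 373.3) in replicate 2. Its 620 bases contain no window of 36 bases that is absent from the coding transcripts of the gene, so any such stretch of it also matches a coding transcript. Srsf6-201 had 85.3 TPM (74.2 to 85.9) in replicate 1 and 57.2 TPM (48.2 to 59.0) in replicate 2, with 8.28% of its windows absent from coding transcripts. Srsf1-204 had 178.0 TPM (157.3 to 175.8) and 145.6 TPM (128.0 to 146.5), with 7.55% of its windows absent from coding transcripts. Of the members' 157 decay-typed transcripts and transcripts without a coding sequence, 83 had at least 1 TPM in both libraries, and 15 of these hold no window of their own within the gene. The intervals of the libraries lay apart for 21 of the 83, with replicate 1 higher in 14. The same count was not made over the transcripts of all detected genes, so it has no background beside it. How the overlap of isoforms affects the shares was not tested.

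A share of TPM weighs a short transcript more than a share of counts. On expected counts the decay-typed share was 28.6% and 20.7% in Srsf2, 28.5% and 20.01% in Srsf6, 34.8% and 26.4% in Srsf3, 18.8% and 14.1% in Srsf1, and 52.6% and 54.9% in Hnrnpd. On that scale 2 genes, Srsf3 and Hnrnpd, kept 25% in both libraries, and U2af1l4 had 24.9% and 25.9%. The share over all detected genes was not computed on counts, so this number has no background beside it.

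Over all 18 members with a decay-typed transcript the median share was 15.7% in replicate 1 and 4.97% in replicate 2, against 5.44% and 4.59% over detected genes with such a transcript. The share was higher in replicate 1 in 14 of the 17 members whose shares were unequal (82.4%), against 51.3% of 1763 genes. The difference, replicate 1 minus replicate 2, had a median of 4.72 percentage points over the members and 0.15 points over all such genes. The gap was wide in several members. Sf3b1-208 held 17.1% of Sf3b1 in replicate 1 and 2.27% in replicate 2, Hnrnph3-204 held 22.8% and 3.61% of Hnrnph3, and decay-typed transcripts held 26.0% and 13.0% of Hnrnpdl. Hnrnpll had 21.8% in replicate 1 and 0% in replicate 2, and Ptbp1 had 14.2% and 4.14%. The reverse order was seen in Hnrnpl (3.58% and 5.79%), U2af1l4 (7.84% and 11.4%) and Ptbp3 (0% and 3.55%).

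Retained-intron and processed transcripts held large shares in some other members. Of the 28 detected members with a transcript lacking a coding sequence, 5 had 25% or more on such transcripts in both libraries (17.9%), against 1383 of 5884 detected genes (23.5%), so this count does not exceed the background. Their median was 16.3% in replicate 1 and 10.3% in replicate 2, against 9.70% and 9.30%. The share was higher in replicate 1 in 16 of the 28 members, against 52.9% of detected genes with unequal shares. Srsf11 had the highest share, 83.0% and 72.6%, all typed retained intron, and 51.0% and 37.3% of the gene lay on Srsf11-207. That transcript has 813 bases as deposited but 1670 bases in M21, which supplied its type. Coding transcripts of Srsf11 amounted to 98.1 TPM in replicate 1 and 144.5 TPM in replicate 2. Srsf10 had 73.8% and 67.2%, led by Srsf10-209 with 62.3% and 47.1%. That transcript is 394 bases long, and by counts the share of Srsf10 on transcripts without a coding sequence was 29.0% and 27.4%. Hnrnph1 had 58.2% and 55.6%, spread over 15 such transcripts, of which Hnrnph1-215 held 20.8% in replicate 1 and 8.31% in replicate 2. Of the windows of Srsf10-209 24.2% are absent from coding transcripts, of those of Hnrnph1-215 3.71%, and of those of the M21 form of Srsf11-207 13.1%.

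Srsf5 had 42.7% and 34.0%, led by Srsf5-206 with 23.7% and 16.4%. Hnrnpl had 35.4% and 46.0%, led by Hnrnpl-210 with 22.3% in replicate 1 and 34.2% in replicate 2. Of the windows of Srsf5-206 44.2% are absent from coding transcripts, and of those of Hnrnpl-210 24.0%. Srsf3 reached 34.1% in replicate 1 and 23.5% in replicate 2, and Srsf1 reached 24.5% and 25.3%, each on the other side of the 25% limit in 1 library. Hnrnpr-208, a retained-intron transcript, held 22.2% of Hnrnpr in replicate 1 and 0% in replicate 2.

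The borders of 3 retained introns are shown as examples of what such transcripts keep. Each line gives 30 bases of the M21 transcript, with the GT that opens the intron or the AG that closes it in capitals.
Hnrnpl-210 donor: tcaggcaaaaGTgagtcagacaccacttcc
Hnrnpl-210 acceptor: ctgtctcctgtttgattcAGgcgagcggag
Srsf1-203 donor: tctcgctctcGTacataagatgattggtga
Srsf1-203 acceptor: tttcatgtgtctttctgtAGacatatctga
Hnrnpdl-206 donor: gactacagcgGTaagaacacttaactcaat
Hnrnpdl-206 acceptor: aactcatatcctttccacAGgtcagcagag

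The Hnrnpl intron has 118 bases at chr7:28821274-28821391 on the plus strand and the Hnrnpdl intron 285 bases at chr5:100036196-100036480 on the minus strand, and both are introns of the leading coding transcript. The Srsf1 intron, 378 bases at chr11:88049599-88049976 on the plus strand, is not an intron of the leading coding transcript. It is spliced out in another coding transcript of the gene. Srsf1-203 held 22.8% of the gene in replicate 1 and 24.4% in replicate 2. Of the windows of Srsf1-203 only 4.42% are absent from coding transcripts, against 24.0% for Hnrnpl-210 and 39.1% for Hnrnpdl-206. Most of Srsf1-203 therefore also matches coding transcripts, and how far its share reflects a retained intron was not tested. The Hnrnpdl intron is kept in Hnrnpdl-206, with 11.9% and 11.6%, and in Hnrnpdl-204, with 10.3% and 9.60%. Spliced and unspliced reads are not separated in the tables, so a retained intron and RNA not yet spliced cannot be told apart.

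By the mean isoform percent of both libraries, the leading transcript was not typed protein coding in 5 members, namely Srsf10-209, Srsf2-204, Srsf11-207, Srsf1-204 and Hnrnpl-210, against 836 of 10317 detected protein-coding genes (8.10%), or 13.6% of the 6167 that have a transcript of another type in the table. Within each library the list differed. Such a transcript led in 6 members in replicate 1 and in 4 in replicate 2, and in Srsf10, Srsf11 and Hnrnpd in both. In Hnrnpd it was Hnrnpd-209 in replicate 1 and Hnrnpd-208 in replicate 2, so coding Hnrnpd-210 led by the mean. In replicate 2 coding Srsf2-201, at 41.9%, stood level with Srsf2-204, at 41.4%, and coding Srsf1-201, at 27.8%, with Srsf1-204, at 27.3%. At the other end, 18 members have only coding transcripts in the table, among them Hnrnpab, Hnrnpa1, Hnrnpa2b1, Hnrnpf, Hnrnpc, U2af1, U2af2 and Srsf7, so no such share could be measured there. The SR genes had a median share without coding sequence of 24.9% and a median decay-typed share of 30.1%, over the 9 and 7 genes that have such transcripts. In the hnRNP genes the medians were 13.9% and 10.9%, over 11 and 7 genes. In the SF3A genes the median share without coding sequence was 2.79%, and no SF3A gene has a decay-typed transcript.

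**Figure D3:**
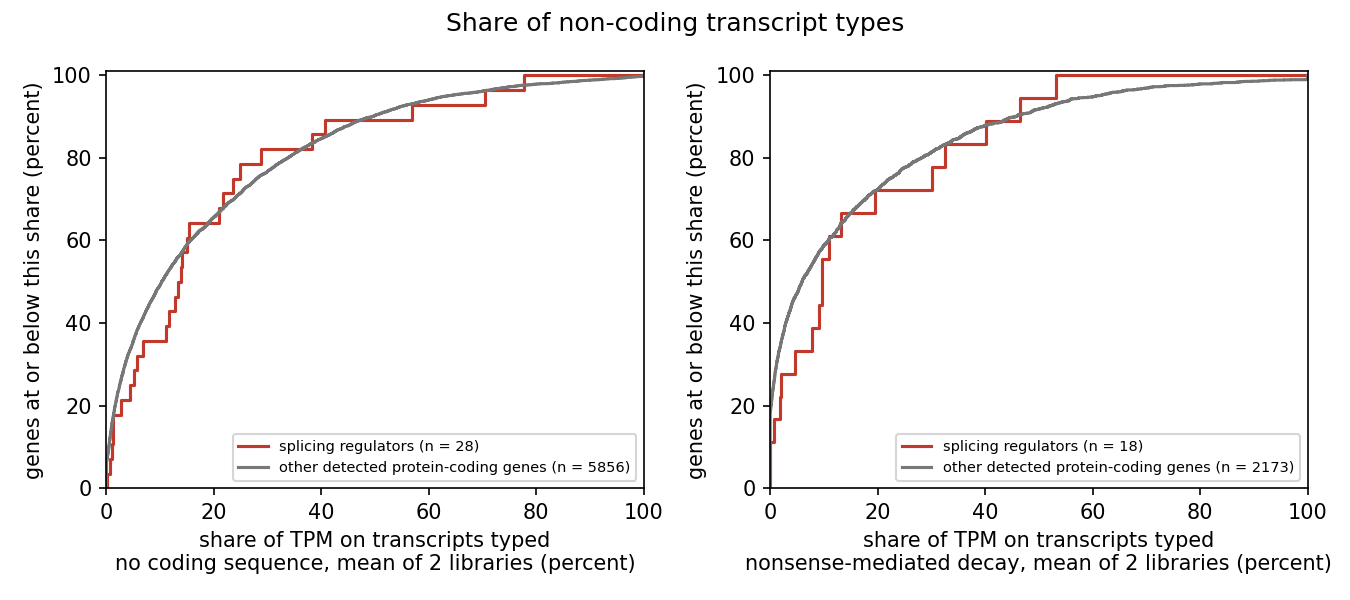
Cumulative share of genes at or below a given percent of TPM on transcripts without a coding sequence (left) and on decay-typed transcripts (right), each the mean of both libraries. Red lines are the splicing regulators with such a transcript (n = 28 and n = 18) and grey lines the other detected protein-coding genes with one (n = 5856 and n = 2173). The red lines lie below the grey ones at low shares, and the lines cross at higher ones.

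The 2 libraries were compared gene by gene on their rounded expected counts, scaled by TMM, a normalization that makes the bulk of genes equal, with the exact binomial test (two-sided). A call is a difference between these libraries beyond counting error and says nothing of a condition. Of the 45 members tested, 33 passed a Benjamini-Hochberg adjusted p of 0.05 (73.3%), against 4692 of 15340 genes (30.6%). Higher in replicate 1 were 23 members (51.1%), against 15.9% of all genes, and lower were 10, against 14.7%. All 45 had a mean of at least 500 counts. Of the 6803 detected protein-coding genes at or above that mean 45.7% were called, 21.8% higher and 23.9% lower in replicate 1. That mean is only a lower limit. Many members had far more counts, up to 53453 for Hnrnpab in replicate 1, so these genes are not matched to the members in depth. The sizes were small. The median log2 ratio, replicate 1 over replicate 2, was 0.07 over the members and -0.01 over those 6803 genes, and its median size was 0.13 and 0.11. The negative binomial exact test of edgeR adds the spread between the libraries, pooled over all genes as a coefficient of variation of 19.8%. It called 0 members, and 0 had an unadjusted p below 0.05, while it called 389 of 15340 genes (2.54%).

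Hnrnph3 had the largest ratio, with 1153 counts in replicate 1 and 882.1 counts in replicate 2, a log2 ratio of 0.52 and an adjusted p of 7.99e-15 in the exact binomial test. Hnrnpm, at 15813 and 13621 counts, had a log2 ratio of 0.35, and Sf3b2, at 10809 and 9656 counts, had 0.30. Lower in replicate 1 were Ptbp3, at 2684 and 3818 counts with a log2 ratio of -0.37, Sf3b4, at 2672 and 3663 counts with -0.32, and Sf3a2 with -0.26. Among the SR genes, Srsf2 (-0.23) and Srsf1 (-0.15) were lower in replicate 1 and Srsf7 (0.12), Srsf3 (0.10) and Srsf5 (0.08) were higher. Of the 20 hnRNP genes 14 were higher and 3 lower.

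TPM and counts did not always order the libraries alike. In TPM, 36 of 46 members were higher in replicate 1, with a median log2 TPM ratio of 0.15 over the members and 0.02 over detected protein-coding genes. The share of all detected genes with the higher TPM in replicate 1 was not computed, for whole genes or for coding transcripts alone. In 6 members, Hnrnpk, Srsf11, Srsf1, Ptbp1, Srsf10 and Srsf4, the TPM was higher in replicate 1 while the scaled count was lower, and of these Srsf1 and Ptbp1 passed the binomial test on counts. On coding transcripts alone 27 members had the higher TPM in replicate 1, and in 9 members the order differed from that of the whole gene. Srsf3, for example, had 305.5 and 247.5 TPM over all transcripts, but 94.5 TPM in replicate 1 and 114.7 TPM in replicate 2 on coding ones. The TPM of a gene divides its reads by a length that depends on the mix of isoforms, and the part of the isoform shares in these differences was not tested.

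**Figure D4:**
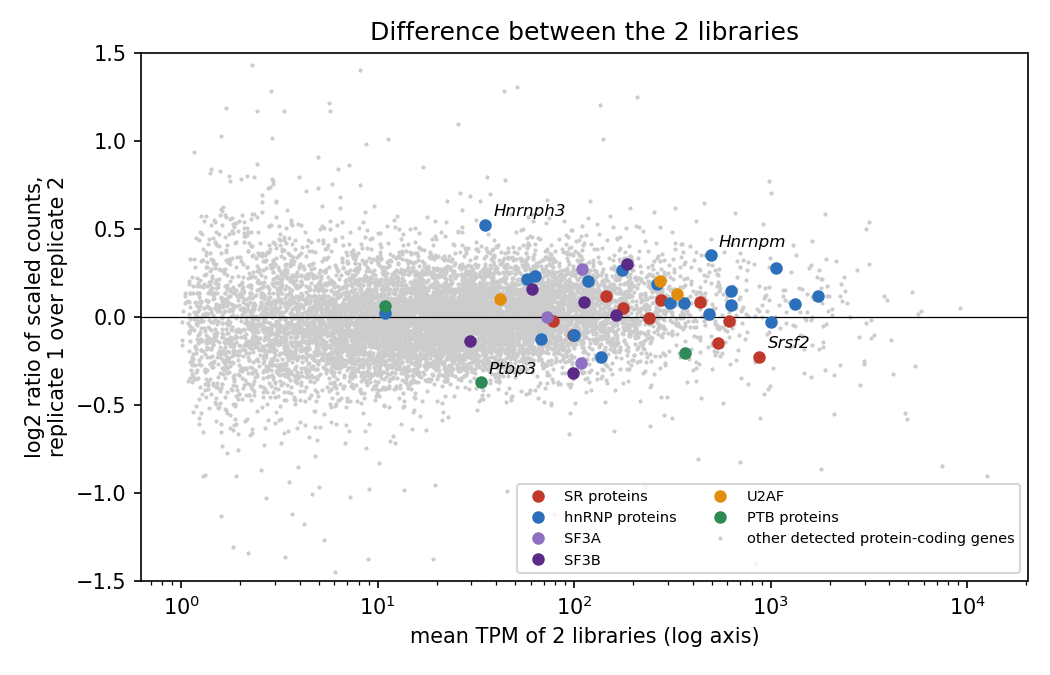
Log2 ratio of TMM-scaled counts, replicate 1 over replicate 2, against mean TPM on a log axis. Coloured points are the 45 splicing regulators and grey points other detected protein-coding genes, of which 26 lie beyond the plotted 1.5 on either side. Hnrnph3 is highest at 0.52 and Ptbp3 lowest at -0.37, inside the grey cloud.

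Several members share sequence with processed pseudogenes, to which the tables also assign reads. The deposited posterior SD of the gene count exceeded 5% of the count in 0 detected members, against 338 of 10317 detected genes (3.28%), and its highest value was 1.97%. Of the 36-base windows of the annotated transcripts, 27 members had at least 90% found in no other gene on either strand, with a median of 94.96%. Hnrnpf had the lowest share with both strands counted, 34.8%. On the own strand alone it had 61.96%, and U2af1l4 (52.8%) and Sf3b4 (53.0%) had less. The pseudogenes Gm6430 and Gm12435 share 30.4% and 27.0% of the windows of Hnrnpf and were listed at 6.47 and 14.3 TPM in replicate 1 and at 0.85 and 8.06 TPM in replicate 2. In Hnrnpa1 70.8% were found nowhere else. The pseudogene Gm10052 shares 28.8% of Hnrnpa1's windows and was listed at 876.9 TPM in replicate 1 and 465.6 TPM in replicate 2. In Hnrnpa3 72.2% were unique, and Gm5641, with 26.5% of its windows, was listed at 497.7 and 298.1 TPM, above Hnrnpa3 itself in both libraries. Srsf3 shares 4.89% of its windows with Gm9761, listed at 299.98 and 218.7 TPM.

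Smaller values stood at the copies of other members. Gm7964 shares 14.9% of the windows of Hnrnpk and was listed at 123.7 and 74.1 TPM, Gm12696 shares 10.2% of Hnrnpc and was listed at 114.5 and 62.1 TPM, Gm10232 shares 22.8% of U2af1 and was listed at 41.2 and 12.1 TPM, and Gm12966 shares 12.0% of Srsf5 and was listed at 32.1 and 6.31 TPM. Each of these 9 pseudogenes was listed higher in replicate 1. Sf3b4 shares 46.99% of its windows with Gm7935, which was listed at 1.83 TPM in replicate 1 and 2.28 TPM in replicate 2, the opposite order. U2af1l4 shares 47.2% with Gm49396, under which M21 places 4 of its transcripts. The level of these members is uncertain to the extent that reads were moved between copies, and this was not tested. Whether the counting used strand is not given in the sources used here, so reads of an overlapping gene on the other strand cannot be told apart: Hnrnpab shares 25.3% of its windows with Phykpl, Srsf2 shares 13.8% with Mettl23, Srsf4 shares 40.6% with Gm12992, Hnrnpf shares 12.4% with Gm28901 (85.8 and 131.8 TPM) and Ptbp1 shares 7.36% with Gm17134 (110.1 and 107.9 TPM).

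Other genes of the splicing pathway were set beside the members. Their calls between the libraries cover counting error only and stand against 15.9% of all genes tested that were higher and 14.7% that were lower in replicate 1, or 21.8% and 23.9% of detected protein-coding genes averaging 500 counts or more. All 9 kinases and phosphatase subunits that act on SR proteins were detected, with 1 higher and 1 lower in replicate 1 by the exact binomial test. Ppp1ca had 282.9 and 282.5 TPM, Clk1 had 97.6 and 88.4 TPM, Srpk1 had 70.1 and 62.1 TPM and Clk2 had 59.7 and 53.2 TPM. Of the 6 that have a transcript without a coding sequence, 4 had 25% or more on it in both libraries, against 23.5% of detected genes with such a transcript, among them Clk1 with 46.3% and 50.6% and Clk2 with 48.8% and 46.1%. Of 15 SR-related proteins 13 were detected, with 6 higher and 3 lower in replicate 1. Rbm39 had 307.2 and 277.6 TPM, Tra2b had 293.3 and 286.5 TPM, Srrm2 had 264.3 and 288.1 TPM and Thrap3 had 257.5 and 239.9 TPM, while the neural Srrm4 was listed at 0 and Srrm3 at 0.02 and 0 TPM. Tra2b, which regulates itself through a poison exon, had 28.4% and 28.4% on its decay-typed transcript. Of the 11 SR-related proteins that have such a transcript, 4 had 25% or more in both libraries, against 18.2% of detected genes with one.

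Of 17 hnRNP proteins and relatives with other symbols 15 were detected, with 7 higher and 3 lower in replicate 1. Ewsr1 had 907.0 and 943.6 TPM, Tardbp had 478.0 and 453.1 TPM and Sfpq had 513.5 and 405.7 TPM, and Pcbp3 and Ralyl were listed at 0. Transcripts without a coding sequence held 68.3% and 67.4% of Ewsr1 and 62.2% and 57.7% of Sfpq, while decay-typed ones held 47.5% and 59.95% of Tardbp. Of the 11 that have a transcript without a coding sequence, 2 had 25% or more on it in both libraries, against 23.5% of detected genes with one. Of the 5 that have a decay-typed transcript, 3 had 25% or more, against 18.2%. Of 21 tissue-restricted splicing factors measured, 4 were detected, Mbnl1 at 116.7 and 127.9 TPM, Mbnl2 at 11.7 and 14.0 TPM, Mbnl3 at 10.8 and 10.4 TPM and Msi1 at 3.74 and 3.92 TPM, with 0 higher and 3 lower in replicate 1. The other 17 stayed at or below 0.38 TPM in both libraries: Rbfox1, Rbfox2, Rbfox3, Nova1, Nova2, Elavl2, Elavl3, Elavl4, Celf3, Celf4, Celf5, Esrp1, Esrp2, Rbm20, Rbm24, Khdrbs2 and Khdrbs3.

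The core of the spliceosome was present throughout. Of 11 U1 and Sm protein genes 10 were detected, with 7 higher and 2 lower in replicate 1: Snrpg had 513.9 and 433.3 TPM, Snrpd2 had 425.2 and 379.1 TPM, Snrpe had 394.8 and 306.9 TPM, Snrnp70 had 323.7 and 283.0 TPM, and the neural Snrpn had 0.55 and 0.20 TPM. All 16 U2 and branch point genes were detected, with 6 higher and 2 lower, led by Rbm17 at 269.2 and 299.5 TPM, Phf5a at 205.4 and 186.7 TPM, Sf1 at 176.0 and 184.2 TPM and Dhx15 at 176.4 and 182.6 TPM. All 15 genes of the U4, U5 and U6 particles were detected, with 9 higher and 2 lower, led by Snu13 at 374.3 and 314.9 TPM, Eftud2 at 323.0 and 302.3 TPM, Prpf8 at 231.1 and 254.1 TPM and Prpf31 at 158.6 and 125.3 TPM. All 14 nonsense-mediated decay factors were detected, with 5 higher and 2 lower, led by the exon junction proteins Eif4a3 at 467.6 and 409.2 TPM, Magoh at 178.3 and 159.8 TPM, Rbm8a at 117.8 and 90.7 TPM and Casc3 at 70.0 and 52.3 TPM.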

How the data were processed

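Polyadenylated RNA of 2 CH12.LX libraries was analysed from 1 gene table and 1 transcript table each. Per the deposited notes, the tables come from transcriptome alignments (mm10, GENCODE M4). Not given in the sources used here were the aligner, the quantification tool, their versions and the strand setting. Expected counts, as deposited, estimate reads per gene or transcript and can be fractional. The authors scaled the deposited TPM and FPKM values by length and depth. The deposited isoform percent gives, per the file headers, how a gene's TPM divides over its transcripts. The posterior mean counts and posterior SD are the authors' estimates of the same counts and their uncertainty.

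Transcript types and coordinates came from GENCODE M21 on GRCm38 by Ensembl identifier without version, and 281 of 309 member transcripts had the deposited length. Types can differ between M4 and M21. Entries that name no gene held 0.0426% of counts in replicate 1 and 0.0539% in replicate 2 and stayed out of tests and library sizes, and 884 Ensembl entries had no name. Expected counts were rounded and tested where they summed to at least 10 over both libraries, with a two-sided exact binomial test against TMM effective sizes (edgeR 4.0.16, R 4.3.3) and Benjamini-Hochberg adjustment at 0.05. Log2 ratios used a pseudocount of 0.5. The binomial test was checked on simulated data. The negative binomial exact test of edgeR took its dispersion from both libraries as 1 group. DESeq2 1.42.0 gave the alternative size factors, and scipy 1.17.1 and pandas 2.3.3 the other values.

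Every member was named. Of each other gene list the 4 genes with the highest mean TPM and every gene under 1 TPM in a library were named, except 1 gene that is not reported here. The marker lists comprised B cell, T cell, myeloid and neural genes. The naming rule of the members uses no values, but members and lists were chosen with earlier results of these data known. The labels give biological replicates but not how the cultures were kept, so p-values of the binomial test hold counting error only, and those of the negative binomial test the spread between these libraries, which may be technical. Alternatives tried were the detection limit, the unit, the share limits, the scaling, the filter and leaving out each replicate.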

Additional observations from a re-analysis of the deposited data

How the results depend on the processing

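Of 51 alternative values, 40 stayed within the limit set and 11 moved. The limit was 1.5 times for a count and 1 SD between the libraries for a share or median. Whether a result reversed was not tested. Some of the 40 could not move. With 0 members of uncertain assignment in either library, a higher limit on the posterior SD or leaving out a replicate must again give 0. The members' share of TPM was 1.48% with all Ensembl genes as the whole and 2.09% on expected counts. The number of members at the limit without a coding sequence was 3 with a limit of 50%, 13 with 10% and 11 with decay-typed transcripts added. The median share without a coding sequence was 6.21% on counts and 22.5% with decay-typed transcripts added. The number of members at the decay-typed limit was 2 on counts. The negative binomial exact test called 0 members as differing, 0 as higher and 0 as lower in replicate 1. The cause was not tested, except that this test adds the spread between libraries and that the other settings count other transcripts, limits or units by construction.

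Leaving out each replicate gave 45 to 45 members detected, a TPM share of 1.77 to 1.95%, and 6 to 6 members at the limit without a coding sequence. The median share without a coding sequence was then 10.28 to 16.29%. At the decay-typed limit were 5 to 6 members. The median decay-typed share was 4.965 to 15.66%, more than 1.5 times from the reported 9.65% on either side. These values lay within the SD of 2 libraries, but that SD is taken from the same 2 values. It could not flag the TPM share and could hardly flag the medians, so it says nothing of their stability. Leaving out a replicate also gave 0 to 0 members of uncertain assignment and 4 to 6 led by a transcript not typed protein coding. The last alternative, and the background at a mean of 500 counts, were chosen after seeing the data. With library totals in place of TMM, 24 members were higher and 10 lower in replicate 1, and 59.5% of all calls were higher there, against 52.1% with TMM. No paired analysis was possible because both replicates belong to 1 group. With 2 libraries, the spread of a value rests on 1 difference, and shares of transcripts that share most of their sequence carry more error than the gene totals.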
